A study of Mus musculus with 12 samples.

Results

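Melatonin is made from tryptophan in 4 steps, and the 9 genes described here are the enzymes that carry out or limit those steps, the melatonin receptors and relatives, and enzymes that remove serotonin or bind melatonin. They were chosen by gene symbol (Asmt, Aanat, Tph1, Tph2, Mtnr1a, Mtnr1b, Gpr50, Nqo2 and Maoa) among the 27308 symbols on the array, and 16 probes carry those symbols. Hypothalamus RNA of 12 male mice, kept on a 12-hour light cycle, was hybridized to Agilent SurePrint G3 arrays of 1 color, with 3 mice in each of 4 groups. The labels give an age of 6 to 7 weeks, which by the study's methods is when swimming began, so the tissue came from older mice. The groups were wild-type controls (WT), Asmt-knockout controls (KO), wild-type mice that swam (exercised WT) and Asmt-knockout mice that swam (KE). All mice were C57BL/6, a background known for inactive or weak copies of the last enzymes of melatonin synthesis. The knockout was homozygous for a 20-bp deletion made by zygote injection of Cas9 mRNA and a guide RNA, the founder mice were crossed back to wild-type littermates for 3 generations, and the WT and exercised WT mice were littermates. Replicates are separate samples of a group, taken here as 1 mouse each since no pooling is stated; p-values measure the spread between these samples, and how precise a difference can be is set by having only 3 of them.

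The first step of the pathway, hydroxylation of tryptophan, is carried out by Tph1 in the pineal gland and periphery and by Tph2 in serotonergic neurons. Ddc then gives serotonin, Aanat acetylates serotonin in the rhythm-setting step, and Asmt methylates the product to melatonin. The pineal gland, outside the hypothalamus, is the main site of this synthesis, and the hypothalamus is a target of the hormone, with receptors in the suprachiasmatic nucleus (the circadian clock) and in the neighbouring pars tuberalis. Mtnr1a and Mtnr1b encode the MT1 and MT2 receptors, which act through inhibitory G proteins. Gpr50 is an orphan relative that does not bind melatonin and is known from tanycytes, the ependymal cells of the third ventricle. Nqo2, a quinone reductase, was once described as a further melatonin binding site. Maoa oxidizes serotonin.

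The sequences that bear on what was and was not measured are the guide RNA that cut Asmt, as written in the labels with its first added base in lower case, and 4 probes of the receptor genes. The guide is shown because it directed the cut, while the 20-bp deletion itself is known here by its length only. The Mtnr1a probes at bases 258 and 951 are shown because they were mostly undetected where the gene's other probe was detected throughout, the Gpr50 probe because it was near the detection limit, and the Mtnr1b probe because it gave no detectable signal.
Asmt guide RNA: gCGCCTACACCAACTCCCCCC
Mtnr1a probe, first base 258 of the transcript (mm9, chr8:46172616-46172675, + strand): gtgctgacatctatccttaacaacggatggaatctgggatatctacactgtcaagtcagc
Mtnr1a probe, first base 951 of the transcript (mm9, chr8:46173309-46173368, + strand): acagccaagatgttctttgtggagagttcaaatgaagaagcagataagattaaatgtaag
Mtnr1b probe, first base 650 of the transcript (mm9, chr9:15667592-15667651, - strand): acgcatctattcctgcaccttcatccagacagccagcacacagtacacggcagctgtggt
Gpr50 probe, first base 974 of the transcript (mm9, chrX:68920438-68920497, + strand): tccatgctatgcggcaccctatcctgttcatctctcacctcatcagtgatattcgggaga

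The first question was which of the 9 genes could be measured in this tissue at all. A probe was detected on an array when the scanner software called it well above background. Of the 16 probes, 4 were detected on all 12 arrays, 7 on some arrays and 5 on none, against 56.7%, 17.6% and 25.8% of the 56605 probes of the whole array. The 4 probes detected everywhere belong to Aanat, Mtnr1a, Nqo2 and Maoa. Gpr50 was detected on 10 arrays. Asmt and Mtnr1b were detected on none, and Tph1 and Tph2 on no more than 1. All values below are normalized signals on the log2 scale, and probes of different genes or different positions were not compared in level, since probes differ in brightness.

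**Figure D1:**
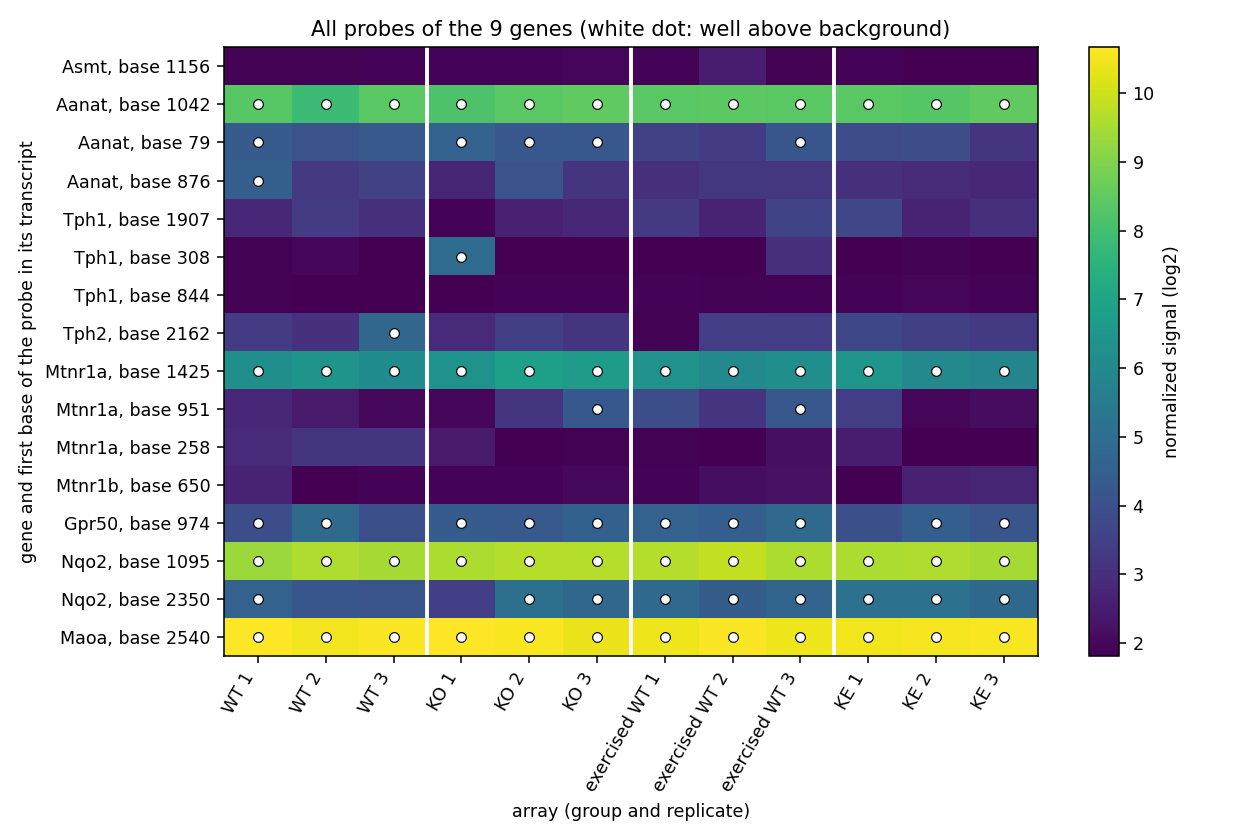
Normalized signal (log2, color) of the 16 probes (rows, by gene and first base of the probe in its transcript) on the 12 arrays (columns, 3 per group), with a white dot where the probe was well above background. The rows with dots throughout are 1 probe each of Aanat, Mtnr1a, Nqo2 and Maoa, while other probes of Aanat and Mtnr1a lack dots on most arrays.

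Asmt, the deleted gene, gave no detectable signal in any mouse. Its only probe read 1.86, 1.86 and 1.90 in WT mice, 1.88, 1.88 and 1.93 in KO mice, 1.91, 2.49 and 1.87 in exercised WT mice, and 1.89, 1.83 and 1.83 in KE mice. The lowest signal called well above background lay between 3.67 and 4.51 on these arrays, so every Asmt value was under that limit in wild-type and knockout mice alike. The array therefore gives no check of the genotype labels. The probe starts at base 1156 of the transcript, its longest run of bases shared with the guide on either strand is 4, and it does not cover the cut site. A transcript with a 20-bp deletion elsewhere could still carry the probe sequence. No fold change was computed for Asmt.

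The tryptophan hydroxylases were also at the detection limit. Tph1 has 3 probes. The probe at base 1907 read between 1.88 and 3.71 and that at base 844 between 1.83 and 1.92, neither detected in any mouse. The probe at base 308 was detected in KO replicate 1 alone, at 4.91, while the other KO arrays read 1.84 and 1.82. Tph2, the neuronal enzyme, was detected in WT replicate 3 alone, at 4.75, and read between 1.86 and 3.72 on the other 11 arrays. Of 11 markers of raphe serotonergic neurons, where Tph2 is made, 7 were detected in every mouse, Gata3 on 10 arrays, the transcription factor Fev on 6, the serotonin transporter Slc6a4 on 1 and En1 on 0. Of all single probes on the array, 56.7% were detected in every mouse, whereas each marker is counted by its brightest probe. The 7 of 11 is no result about these neurons.

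Aanat was read by 3 probes that did not give the same picture. The probe at base 1042 (mm9, chr11:116458684-116458743) was detected in every mouse. It read 8.37, 7.87 and 8.40 in WT mice, 8.20, 8.40 and 8.51 in KO mice, 8.39, 8.43 and 8.41 in exercised WT mice, and 8.39, 8.33 and 8.52 in KE mice. WT replicate 2 was the lowest of the 12 and the groups overlapped in every comparison. The log2 difference was 0.16 ± 0.14 (SE) for KO against WT, 0.20 ± 0.14 for exercised WT against WT, 0.04 ± 0.14 for KE against KO and 0.00 ± 0.14 for KE against exercised WT. The 95% interval of the last difference ran from -0.30 to 0.30, that is from 0.812-fold to 1.23-fold.

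The second Aanat probe, at base 79 of another transcript of the gene (mm9, chr11:116457407-116457466), was detected on 5 arrays, with 1 WT, 3 KO, 1 exercised WT and 0 KE mice. It read 4.34, 4.08 and 4.29 in WT mice, 4.59, 4.23 and 4.21 in KO mice, 3.51, 3.37 and 4.19 in exercised WT mice, and 3.83, 3.91 and 3.18 in KE mice. This probe entered the tests only because all 3 KO arrays detected it, so the filter in part fixed its high values in KO mice, and the KE values were not well above background. No difference between KE and KO mice is drawn from it. Over all tested probes, the groups did not overlap in KE against KO for 21.5%, and among the 7 tested probes of the 9 genes this Aanat probe was the only 1. The third Aanat probe, at base 876, was detected in 1 WT mouse, at 4.49, and in no other. The Aanat signal seen in all mice thus rests on 1 probe of 3.

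**Figure D2:**
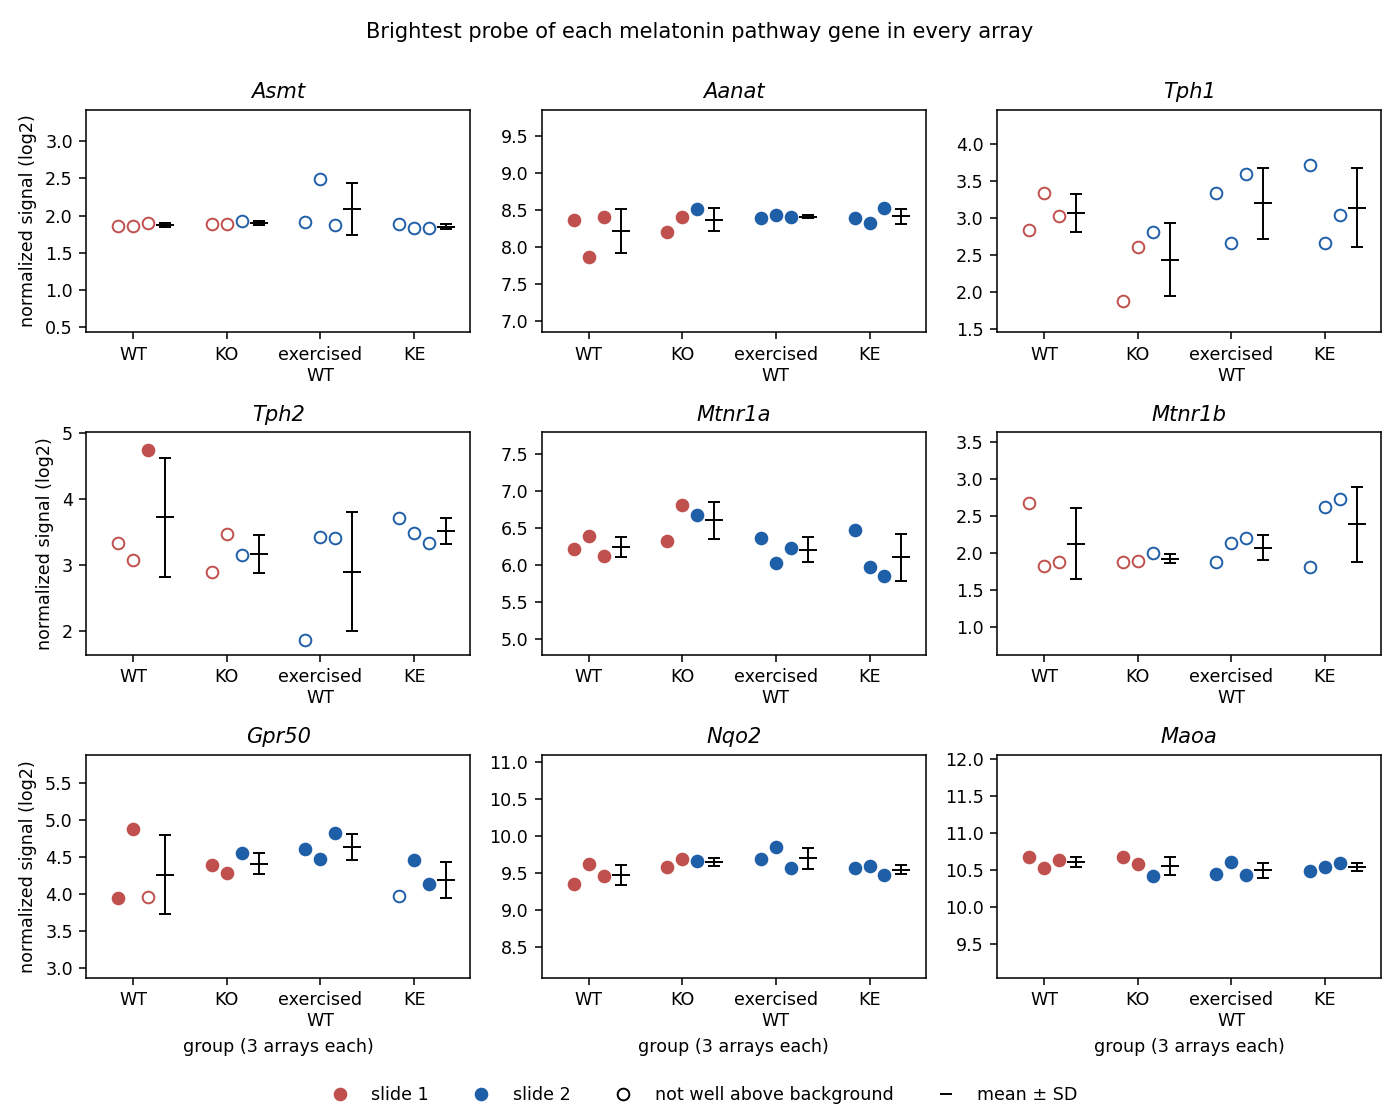
Normalized signal (log2, vertical axis, own range in each panel) of the brightest probe of each gene in WT, KO, exercised WT and KE mice (3 arrays each), with slide 1 in red, slide 2 in blue, open circles for values not well above background, and the mean ± SD beside each group. Asmt, Tph1 and Mtnr1b have open circles only, and Maoa, Nqo2 and Aanat show filled points at nearly level group means.

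Among the receptors, Mtnr1a was detected in every mouse through the probe at base 1425 (mm9, chr8:46173783-46173842). It read 6.22, 6.39 and 6.13 in WT mice, 6.33, 6.81 and 6.67 in KO mice, 6.37, 6.03 and 6.23 in exercised WT mice, and 6.47, 5.98 and 5.86 in KE mice. KO replicates 2 and 3 were the highest of the 12, and KE replicates 2 and 3 were the lowest, but KO replicate 1 and KE replicate 1 crossed over, so the groups overlapped. The group means in order were 6.60 for KO, 6.25 for WT, 6.21 for exercised WT and 6.10 for KE mice. Neither exercised WT and WT mice (-0.04 ± 0.17, SE) nor KE and exercised WT mice (-0.11 ± 0.17) differed by more than that error.

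KE mice had a log2 difference of -0.50 ± 0.17 from KO mice at Mtnr1a (95% interval -0.89 to -0.11, unadjusted p = 0.0163, adjusted p = 0.179, limma). In a bulk tissue, fewer cells of a type and less RNA per cell cannot be told apart. KO mice differed from WT mice by 0.36 ± 0.17 (unadjusted p = 0.0686, adjusted p = 0.846, limma). The difference between the swimming responses of the genotypes, the interaction, was -0.46 ± 0.25 (unadjusted p = 0.09, adjusted p = 0.686, limma). None passed the adjusted threshold. The 12 suprachiasmatic nucleus markers were all detected in every mouse. Their summed signal ranged from 38800 to 47600 in WT, 38800 to 49600 in KO, 29600 to 40900 in exercised WT and 36200 to 42000 in KE mice. In the same order, that of 12 pars tuberalis and pituitary markers ranged from 34900 to 39700, 36500 to 47300, 37300 to 44200 and 34300 to 39400. Of the latter, Gh and Pou1f1 were detected on 0 arrays, Prl on 3, Pitx1 on 4, and Cga and Fshb on 5. The 6 detected in every mouse were Tshb, Lhb, Eya3, Timeless, Cck and Tac1, and Tac1 is also among the striatal markers used below. That summed signal is therefore not particular to the pars tuberalis or pituitary. The part of these cell types in the Mtnr1a values was not tested.

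The other Mtnr1a probes, whose sequences stand above, sat at or under background. The probe at base 951 was detected in KO replicate 3, at 4.25, and exercised WT replicate 3, at 4.23, and in no other mouse. The probe at base 258 was detected in none. Its values were 2.90, 3.18 and 3.16 in WT mice, 2.46, 1.83 and 1.86 in KO mice, 1.86, 1.84 and 2.19 in exercised WT mice, and 2.53, 1.84 and 1.84 in KE mice. All 3 WT values lay above the other 9, yet also under the lowest detected signal of their own arrays (3.75 to 4.51), so no fold is given. The brighter Mtnr1a probe showed no such excess in WT mice.

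Mtnr1b was detected in no mouse, with values from 1.81 to 2.73. Gpr50 was detected in 2 WT, 3 KO, 3 exercised WT and 2 KE mice. It read 3.95, 4.88 and 3.96 in WT mice, 4.40, 4.28 and 4.56 in KO mice, 4.61, 4.47 and 4.83 in exercised WT mice, and 3.98, 4.46 and 4.14 in KE mice. Gpr50 entered the tests through the KO and exercised WT mice, where all 3 arrays detected it. The filter thus in part favoured high values in those groups, and no difference between KE and exercised WT mice is drawn from it. Every KE value was under every exercised WT value, by as little as 4.46 against 4.47. Such separation was found for 19.6% of all tested probes in that comparison and for 1 of the 7 probes here. The fitted log2 difference, which the filter in part favoured, was -0.45 ± 0.23 (95% interval -0.97 to 0.08). All 6 of these arrays were on slide 2, which does not remove the part of the filter. WT replicate 2 was the highest of all 12 arrays, so the WT spread (SD 0.53) was the widest.

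Genes of tanycytes, the cells that Gpr50 is known from, were given beside it. All 12 tanycyte markers were tested and 11 were detected in every mouse. Their summed signal ranged from 10100 to 11000 in WT, 10900 to 11900 in KO, 11000 to 15100 in exercised WT and 9770 to 11200 in KE mice. At an unadjusted p under 0.05 (limma), 0 were higher and 3 lower in KE than in exercised WT mice, and the median log2 difference of the list was -0.03, against -0.01 over all genes tested. Of all tested probes, 6.71% passed that p in this comparison. Crym, a thyroid hormone binding protein, met the screening criterion (at least a 2-fold difference whose unadjusted p is at most 0.05) at -1.06 ± 0.45 (unadjusted p = 0.0423, adjusted p = 0.741, limma), with 11.07 ± 1.12 in exercised WT and 10.01 ± 0.11 (SD) in KE mice, and no longer met it with the slide as a block. The summed signal of 12 striatal markers was 67200 to 72300 in WT, 64000 to 67600 in KO, 68100 to 92100 in exercised WT and 63300 to 64300 in KE mice. In KE against exercised WT the striatal list median was -0.28, and the striatal receptor Adora2a met the criterion at -1.33 ± 0.51 (unadjusted p = 0.0263, adjusted p = 0.71, limma). In the same group order, the sum of 12 choroid plexus markers was 24600 to 27500, 22500 to 26600, 24900 to 26500 and 22300 to 26200. Their list median in KE against exercised WT was -0.17, and Ttr lay farthest from 0, at -1.57 ± 0.96. Of all tested probes, 0.25% met the criterion in KE against exercised WT mice. The part of these cell types in the Gpr50 values was not tested.

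Maoa and the Nqo2 probe at base 1095 had the smallest spread within groups among the 7 tested probes. That Nqo2 probe (mm9, chr13:34077456-34077515) read 9.35, 9.62 and 9.46 in WT mice, 9.59, 9.69 and 9.67 in KO mice, 9.69, 9.85 and 9.57 in exercised WT mice, and 9.57, 9.60 and 9.48 in KE mice. The WT group was lowest on average and the exercised WT group highest, with overlap. Exercised WT mice differed from WT mice by 0.23 ± 0.09 (95% interval 0.03 to 0.42, unadjusted p = 0.0258, adjusted p = 0.147, limma). By the unpaired t-test of the study's methods, the unadjusted p was 0.111. The WT and exercised WT arrays lay on different slides. The genotypes' swimming responses differed by -0.33 ± 0.12 (unadjusted p = 0.0243, adjusted p = 0.578, limma), which with the slide as a block was -0.31 ± 0.13. On the linear scale the interval of that difference ran from 0.66-fold to 0.965-fold. The second Nqo2 probe, at base 2350, was detected on 9 arrays (1 WT, 2 KO, 3 exercised WT and 3 KE). Its interaction had the opposite sign, 0.22 ± 0.50, with an interval from -0.89 to 1.33 that contains the value of the first. With the tested probes of Nqo2 averaged, the interaction was -0.05.

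Maoa (mm9, chrX:16263318-16263377) read 10.67, 10.53 and 10.63 in WT mice, 10.67, 10.58 and 10.42 in KO mice, 10.45, 10.61 and 10.43 in exercised WT mice, and 10.49, 10.54 and 10.60 in KE mice. The 12 values spanned 10.42 to 10.67 with all groups overlapping. The fitted differences were -0.05 ± 0.08 for KO against WT, -0.11 ± 0.08 for exercised WT against WT, -0.01 ± 0.08 for KE against KO and 0.04 ± 0.08 for KE against exercised WT. Their 95% intervals together covered 0.822-fold to 1.16-fold, so a change of 2-fold lay outside every one of them. The pooled SD within groups was 0.093 for Maoa and 0.11 for this Nqo2 probe, against a median of 0.14 over all tested probes, 0.18 for the brighter Aanat probe, 0.23 for Mtnr1a and 0.31 for Gpr50. The second Nqo2 probe, at 0.48, had the largest of the 7.

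**Figure D3:**
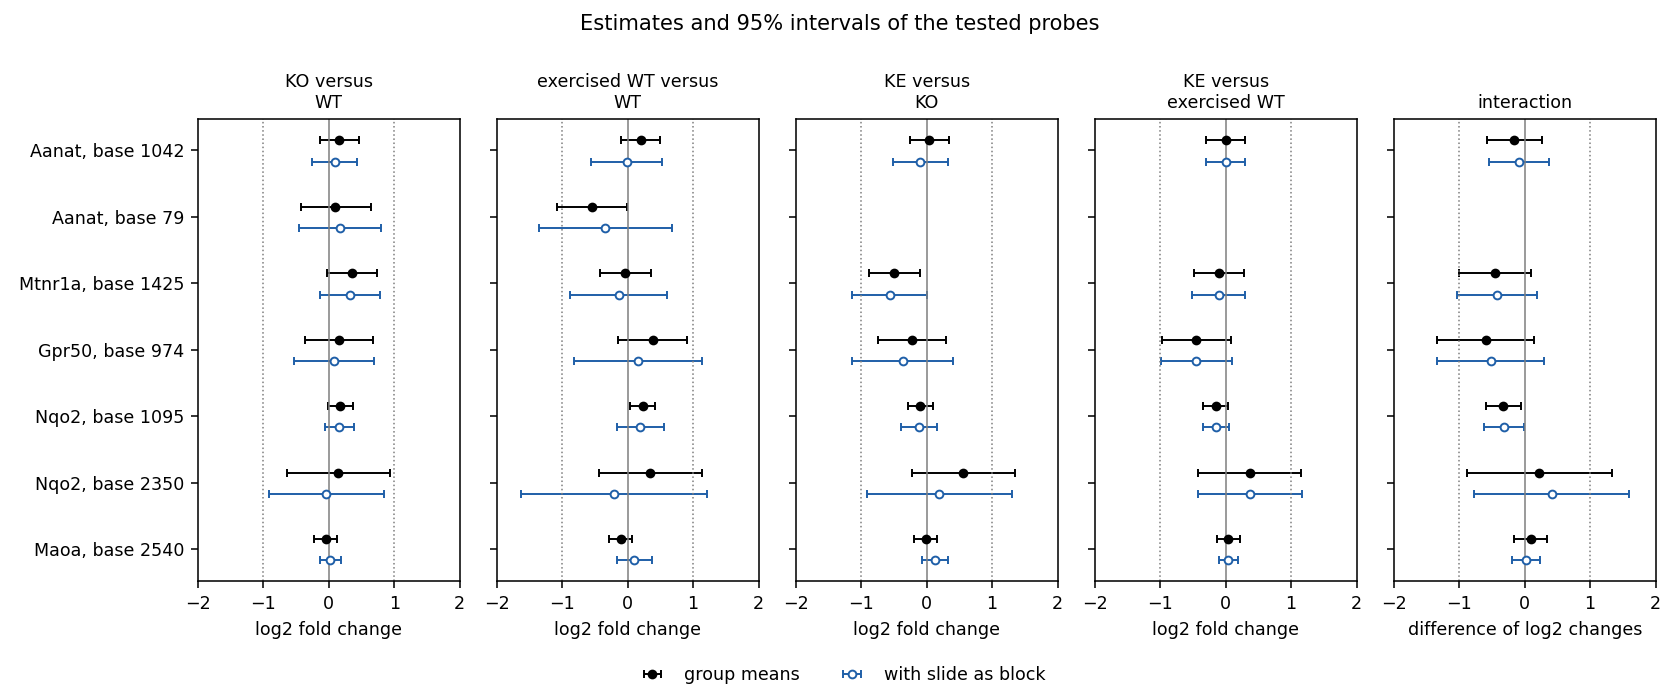
Estimates (points) with 95% intervals (bars) for the 7 tested probes in the 4 group comparisons (log2 fold change) and the interaction (difference of log2 changes), from the fit of group means (black) and with the slide as a block (blue, open), with dotted lines at a 2-fold change. The estimates of the Aanat probe at base 79 that involve KE mice are left out, since no KE array detected it. No black point lies past a dotted line, and the intervals of Maoa and of Nqo2 at base 1095 are the narrowest.

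The comparisons were then read over the 9 genes as a whole. A probe was tested when detected on all 3 arrays of at least 1 group, which held for 7 of the 16 probes, from 5 of the 9 genes (Aanat, Mtnr1a, Gpr50, Nqo2 and Maoa), and for 35229 probes of the array. The screening criterion was a fold change of at least 2 in either direction with an unadjusted p of at most 0.05. In KO against WT, the effect of the knockout at rest, 0 of the 7 probes met it and 0.227% of all tested probes did. In exercised WT against WT, which differ in both swimming and slide, the counts were 0 of 7 and 2.19%. In KE against KO, which differ in swimming and, for KO replicates 1 and 2, in slide, they were 0 of 7 and 1.21%. In KE against exercised WT, the genotypes after swimming, they were 0 of 7 and 0.25%. For the interaction they were 0 of 7 and 0.602%. At these background shares, 0 of 7 is no result about the 9 genes.

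At an unadjusted p under 0.05 with no limit on the fold (limma), the counts among the 7 probes were 0 in KO against WT (5.47% of all tested probes), 2 in exercised WT against WT (25.9%), 2 in KE against KO (21.1%), 0 in KE against exercised WT (6.71%) and 1 for the interaction (7.76%). These were the Aanat probe at base 79 and Nqo2 for exercised WT against WT, Mtnr1a and, through the filter described above, the same Aanat probe for KE against KO, and Nqo2 for the interaction. In none of the 5 comparisons did the adjusted p of a probe of these genes fall under 0.05. Over all tested probes the share was 0.0199% in KE against KO and 0% in each of the others. In KO against WT and in exercised WT against WT, no probe of the 9 genes had groups that did not overlap, against 8.63% and 37.5% of all tested probes.

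The arrays lay on 2 slides. Slide 1 held the WT mice and KO replicates 1 and 2, and slide 2 held KO replicate 3 and all mice that swam. Swimming and slide can therefore be separated only through the KO mice, whereas KE against exercised WT lies within slide 2. In a fit with the slide as a block, the slide term is the difference of KO replicate 3 from KO replicates 1 and 2. Blocked values of swimming against rest, here and below, thus hang on KO replicate 3, which is 1 mouse, as does any change of direction they show. With the slide as a block, the difference of exercised WT from WT at Nqo2 was 0.19 ± 0.16 with an unadjusted p of 0.255 (limma). The Aanat probe at base 79, detected in 1 mouse of each of these groups, also no longer had a p under 0.05 there (0.458, limma). Mtnr1a in KE against KO was -0.57 ± 0.26 with an unadjusted p of 0.0532 in that limma fit. The share of spots called well above background ran from 61.62% to 67.91% over the arrays, and 0 spots were saturated.

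Marker genes were set beside the tissue label. Of all single probes on the array, 56.7% were detected in every mouse. All 12 striatal markers were as well, so detection alone cannot separate this tissue from its neighbours. Of 20 hypothalamic markers, 20 were tested and 19 were detected in every mouse, among them Avp, Oxt, Pomc, Agrp and Hcrt. The exception, Sim1, was detected in 2 WT, 1 KO, 3 exercised WT and 3 KE mice and differed by 2.01 between exercised WT and WT mice, a direction that turned to -1.10 with the slide as a block. Sim1 entered the tests only through the mice that swam, so the filter in part fixed its high values there. Of 12 pineal markers, 8 were tested and 7 were detected in every mouse, including Crx, Otx2, Sag and Rbp3, while Gngt1 was detected on 0 arrays and Isl2, Lhx4 and Pde6b on 1 each. Each marker is counted by its brightest probe, and the share of 56.7% by single probes. The 7 of 12 is no result about pineal content. The summed signal of the pineal markers ranged from 2420 to 2980 for WT, 2450 to 3840 for KO, 3240 to 3810 for exercised WT and 3450 to 4050 for KE mice. The WT and exercised WT ranges do not overlap, but those groups lie on different slides, and the list's median difference between them turned from 0.30 to -0.27 with the slide as a block. Otx2 also marks the choroid plexus and Neurod1 is also made in neurons, and the part of these markers in the Aanat signal was not tested.

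The genes that feed, remove or relay the pathway's products were described from 4 lists. All 12 genes of serotonin and cofactor supply were detected in every mouse, and 0 met the criterion in any comparison. This list holds Ddc, which makes serotonin, the tryptophan transporter chains Slc7a5 and Slc3a2, and the enzymes that make and recycle tetrahydrobiopterin, the cofactor of tryptophan hydroxylase. At an unadjusted p under 0.05 (limma), 1 was higher and 2 were lower in exercised WT than in WT mice, 1 was higher and 3 were lower in KE than in KO mice, and 0 passed in the other comparisons. The share of all tested probes passing was 25.9% and 21.1% in the first 2 comparisons, and with the slide as a block 0 genes of the list passed in either. The list's median log2 difference was -0.09 in exercised WT against WT (-0.03 over all genes tested) and -0.13 in KE against KO (-0.04), and 0.04 and -0.02 with the slide as a block. The farthest from 0 was Slc7a5, at 0.58 ± 0.16 in exercised WT against WT (unadjusted p = 0.00498, adjusted p = 0.0953, limma) and 0.52 ± 0.16 in KE against KO (unadjusted p = 0.00879, adjusted p = 0.161, limma). With the slide as a block these were 0.03 and 0.16. The 2 comparisons use different mice.

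Of the genes that break down indoleamines and tryptophan, 20 of 21 are on the array (Kyat1 has no probe) and 16 were tested. Cyp1a2, the liver enzyme that hydroxylates melatonin, and Kynu were detected in no mouse, Cyp1a1 in 2 and Kmo in 1. None of the 16 met the criterion, and list medians lay between -0.08 and 0.02 (all genes: -0.04 to 0.00). At an unadjusted p under 0.05 (limma), exercised WT against WT had 1 gene higher and 4 lower (25.9% of all tested probes passed), and with the slide as a block 1 higher and 1 lower. Inmt, which methylates indoleamines, read 6.73 ± 0.21 for WT, 7.38 ± 0.91 for KO, 6.96 ± 0.93 for exercised WT and 7.42 ± 0.57 (SD) for KE mice. Its difference between KO and WT mice was 0.64 ± 0.53. A slide block, which for KO against WT compares slide 1 arrays only, gave 1.16 and met the criterion, and the blocked value for exercised WT against WT, 1.78, met it too. Mpo, a peroxidase that can oxidize melatonin, differed by 0.54 ± 0.23 between exercised WT and WT mice. Qprt, of the kynurenine pathway, differed by -0.39 ± 0.16 between KE and KO mice, and Sult1a1, which sulfates phenols, had an interaction of -0.49 ± 0.27.

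All 26 genes of melatonin receptor signalling (inhibitory and other G protein subunits, adenylyl cyclases, protein kinase A, arrestins, potassium channels and ROR nuclear receptors) were detected in every mouse, and 0 met the criterion. List medians lay between -0.05 and 0.00. In exercised WT against WT, 4 were higher and 5 lower at an unadjusted p under 0.05 (limma), and in KE against KO 0 were higher and 4 lower, where 25.9% and 21.1% of all tested probes passed. With the slide as a block, 1 was higher and 1 lower in the first comparison and 0 passed in the second. Gnai2, an inhibitory G protein subunit, was farthest from 0 in 3 comparisons, at 0.50 ± 0.29 in exercised WT against WT, 0.60 ± 0.29 in KE against KO and 0.28 ± 0.29 in KE against exercised WT. In the first 2 of these the direction turned with the slide as a block, to -0.70 and -0.21. Rorb differed by -0.23 ± 0.19 in KO against WT, and Creb1, the cAMP-responsive transcription factor, had an interaction of -0.31 ± 0.13 (unadjusted p = 0.0408, adjusted p = 0.619, limma).

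Of 14 genes known to control Aanat in the pineal gland (adrenergic receptors, the repressor Crem, and the 14-3-3 proteins that bind the enzyme), 13 were tested and 0 met the criterion. Drd4 was detected in no mouse. Fosl2, a transcription factor that limits Aanat in the pineal gland, was farthest from 0 in every comparison. It read 9.35 ± 0.14 for WT, 9.56 ± 0.23 for KO, 9.65 ± 0.35 for exercised WT and 9.0 ± 0.40 (SD) for KE mice. Its interaction was -0.85 ± 0.31 (unadjusted p = 0.0217, adjusted p = 0.576, limma) and was -0.85 with the slide as a block as well. KE mice differed from KO mice by -0.56 ± 0.22 and from exercised WT mice by -0.64 ± 0.22 at Fosl2, and these comparisons share the KE mice. The brighter Aanat probe differed by 0.04 and 0.00 in the same comparisons. At an unadjusted p under 0.05 (limma), 1 gene of the list was higher and 2 were lower in KE than in KO mice. There 21.1% of all tested probes passed, and with the slide as a block 0 genes of the list did. In KE against exercised WT mice 0 were higher and 2 lower, with and without the block, where 6.71% of all tested probes passed without it.

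**Figure D4:**
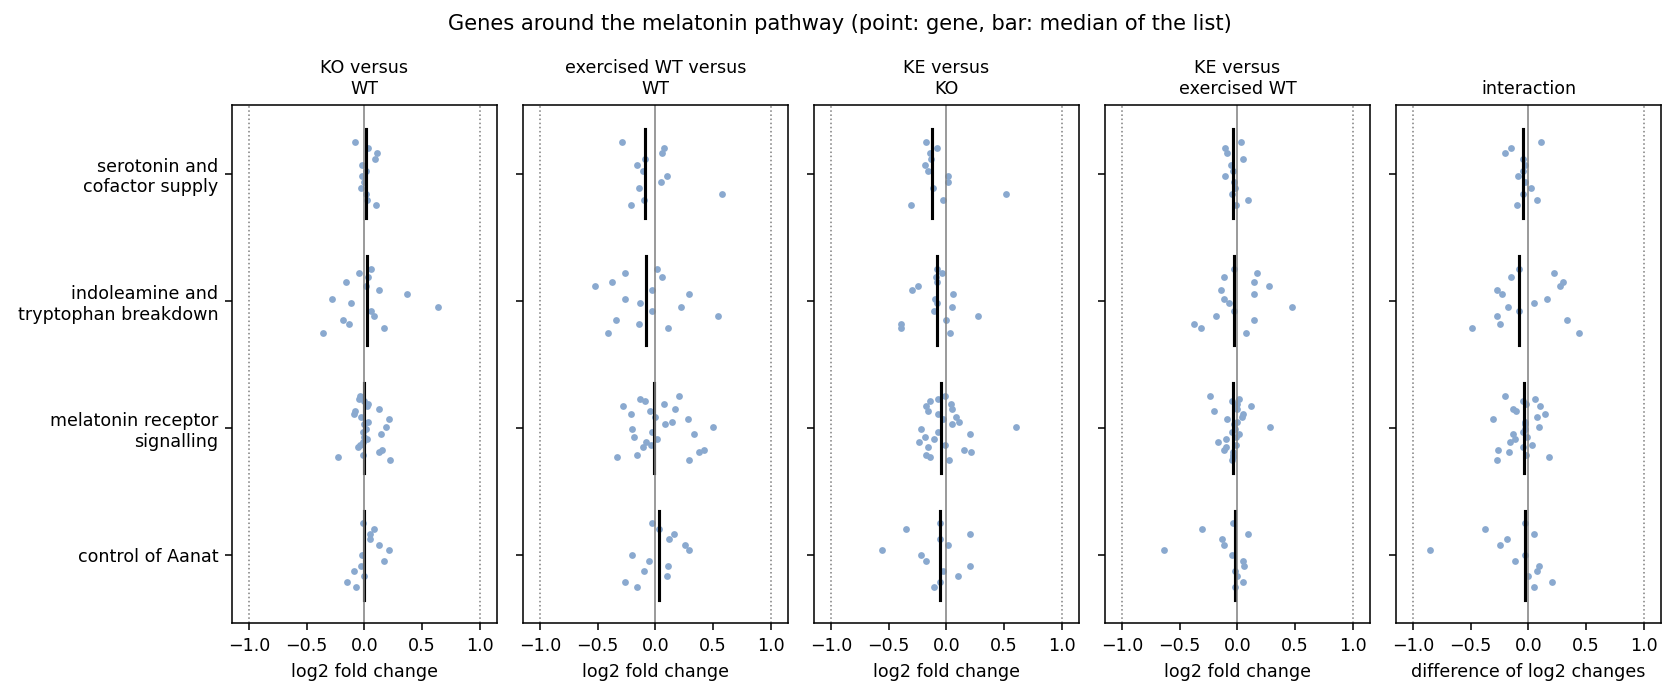
Log2 fold change (horizontal axis, difference of log2 changes for the interaction) of each tested gene (point) of the 4 lists around the melatonin pathway, with the list median (bar) and dotted lines at a 2-fold change. No point passes a dotted line, and the medians lie between -0.13 and 0.03.

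The pattern of each gene over the 12 arrays was set against that of 17169 other genes detected in every mouse. The nearest 3 by Pearson r were Gm33301 (0.96), Trp73 (0.95) and Hbp1 (0.93) for Aanat, Zfp229 (0.91), Hbq1a (0.89) and Manf (0.89) for Mtnr1a, Tns3 (0.92), Kcna5 (0.90) and Tmem14c (0.89) for Nqo2, and Zdhhc4 (0.96), Insl5 (0.94) and Nudt6 (0.93) for Maoa. The 12 arrays share 2 slides and 4 groups, and the 3 named for each gene are the highest of 17169 values. Among Aanat, Mtnr1a, Nqo2 and Maoa themselves, r lay between -0.35 and 0.25.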

How the data were processed

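Hypothalamus RNA of 12 mice was hybridized to single-color arrays. Files deposited by the authors were the output of Agilent Feature Extraction 10.7.1.1 (version per the labels), in which values are the intensity of each spot after background subtraction, and a table of log2 values quantile-normalized over all arrays. The authors' deposited tables of comparisons, with fold changes, p-values and 24 columns of values per sample, were not used. Outlier spots were left out, replicate spots averaged, log2 processed signals quantile-normalized and group means modelled in limma 3.58.1 (R 4.3.3) with Benjamini-Hochberg adjustment over 35229 tested probes. For the 16 probes, values lay within 0.0037 of the authors' log2 values. Sample replicate numbers follow the sample titles; array names in the labels carry other numbers. The fit was tested on simulated data. A gene's brightest probe on average was taken as its main probe. Where a group had no detected value, no fold is given. From the lists, genes meeting the criterion and the gene farthest from 0 per comparison were named, and for genes detected throughout, the 3 genes most alike. Positions are those of the array annotation, mm9, which names no exon or intron. Other marker lists checked were choroid plexus (11 of 12 tested, Aqp1 meeting the criterion at 1.01 in exercised WT against WT, 0 with the slide as a block), microglia (12 of 12 tested, 0 meeting it) and raphe (8 of 11 tested, En2 meeting it for the interaction at 1.14). Aqp1 was detected in 2 WT, 2 KO, 3 exercised WT and 3 KE mice, so it was tested only through the mice that swam. The 9 genes and the lists were chosen with earlier results of these data known. Alternatives changed the scaling, background correction, filter, outlier spots, averaging of probes, blocks, samples and test.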

Additional observations from a re-analysis of the deposited data

How the results depend on the processing

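The count of the 9 genes meeting the screening criterion was 0 in all 5 comparisons and remained 0 under every alternative but 1, and leaving out each array in turn gave 0 to 0. Without the detection filter, 1 gene (Mtnr1a) met it in KO against WT, in exercised WT against WT and for the interaction, through the probe at base 258, which was not well above background on any array, and for the interaction also the probe at base 951. Of 560 recomputed fold changes of the tested genes' main probes, all 560 stayed on the same side of the criterion and 34 had another sign, with neither value called. The lowest adjusted p (limma) was 0.0627, for Nqo2 in exercised WT against WT, where the range over alternatives reached 0.851. Averaging the tested probes of Aanat moved KE against KO from 0.04 to -0.33. That average takes in the probe at base 79, which no KE array detected, so nothing is drawn from it. Normexp background correction moved the Gpr50 interaction from -0.60 to -0.19, and the cause of that move was not tested. By the methods' t-test, 0 of the 9 genes met the criterion and 0 had an adjusted p under 0.05 in the 4 group comparisons, and over all tested probes 24 met the criterion in KO against WT against 80 by limma, and 57 against 427 in KE against KO. The labels number replicates 1 to 3 in each group, but same-numbered arrays did not deviate together (correlations from -0.19 to 0.24), and the other numbers in the array names, shared by 11 pairs, gave -0.14 to 0.24, so neither numbering met the bar for pairing, a correlation over 0.1 in every pair. With the replicate number as a block, 0 of the 9 genes met the criterion in each comparison, and over all tested probes 74 against 80 did in KO against WT. Precision is limited by 3 arrays per group and, for Gpr50 and the dim probes, by signal over background.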
